A study of Mus musculus with 11 samples.

Results

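Transcripts of 36 cell cycle and DNA replication genes were followed in mouse cortex and hippocampus, in whole-tissue RNA at postnatal day 7 and in ribosome-bound RNA of excitatory neurons at postnatal days 7, 14 and 21. The genes were chosen by name and found by symbol among the 77179 Ensembl gene IDs of the expression table, where 36 of 36 had a row. They were divided by role into 17 mitotic members, 12 replication members and 7 G1 members. The mitotic members were Mki67, Top2a, Cdk1, Ccna2, Ccnb1, Ccnb2, Aurka, Aurkb, Bub1, Bub1b, Plk1, Cenpe, Cenpf, Birc5, Cdc20, Nusap1 and Tpx2. The replication members were Mcm2 to Mcm7, Cdc45, Cdc6, Pcna, Rrm1, Rrm2 and Tyms, and the G1 members were Cdk2, Cdk4, Ccnd1, Ccnd2, Ccne1, Ccne2 and E2f1.

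The cell cycle is driven by cyclin-dependent kinases, which act only when bound to a cyclin. D-type cyclins with Cdk4 or Cdk6 and E-type cyclins with Cdk2 move a cell through G1 and release E2F factors from the retinoblastoma protein, and E2F factors turn on replication genes. The MCM helicase then opens DNA for copying, and cyclin B with Cdk1 starts mitosis. Neurons leave the cycle for good when they are born, and most excitatory neurons of the cortex are born before birth, whereas glial precursors and a few progenitor niches, the dentate gyrus of the hippocampus among them, go on dividing after birth.

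All animals carried the Rpl10aeGFP/eGFP reporter, a Cre-dependent GFP-tagged form of the ribosomal protein Rpl10a. The 9 pull-down libraries (IP) came from NEX-Cre;Rpl10aeGFP/eGFP mice, in which Cre is made from the Neurod6 (NEX) locus of forebrain excitatory neurons, with 3 libraries each at P7, P14 and P21 that the labels call biological replicates. Tagged ribosomes were captured with antibody beads and the attached RNA was sequenced. The 2 whole-tissue libraries (input) were both from P7, with replicate 1 from NEX-Cre;Rpl10aeGFP/eGFP and replicate 2 from Rpl10aeGFP/eGFP without Cre. Cortex and hippocampus were processed together, so no value belongs to either alone, and there was no input at P14 or P21 and no pull-down from mice without Cre.

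Levels are given in TPM, each gene's length-corrected share of a library's transcripts, so levels of different genes can be set side by side. Differences are given as log2 of TPM + 1, in which the change of a weakly expressed gene looks smaller than it is, with the standard error of a limma fit to all 11 libraries. Sequencing depth cannot be read from TPM and is unknown, and 15154 to 17793 genes reached 1 TPM in a library. The P7 pull-down held Slc17a7, the vesicular glutamate transporter gene of excitatory neurons, at 628 TPM ± 106 (SD, n = 3), against 537 TPM ± 32.4 (SD, n = 2) in input. Summed TPM over 18 excitatory neuron markers was 3890 to 4358 in P7 IP and 3423 to 3499 in input, and 7 of the 18 were higher and 6 lower in the limma test. Gad1 of inhibitory neurons was at 6.27 against 69.6 TPM, Gfap of astrocytes at 8.40 against 130 TPM and Cx3cr1 of microglia at 0.667 against 12.1 TPM. These 3 genes were thus low in the pull-down but not at 0.

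At P7 the mitotic members were far lower in the pull-down than in the tissue, the replication members were lower by less, and the G1 members divided. Summed TPM over the 17 mitotic members was 74.7 to 81.1 in input and 15.1 to 17.5 in P7 IP, a ratio of group means of 0.206. Over the 12 replication members it was 151 to 155 against 78.2 to 85.6, a ratio of 0.535. Over the 7 G1 members it was 218 to 221 against 202 to 225, a ratio of 0.978, where Cdk4 alone made up most of the sum. From P7 to P21 the pull-down sums went to 7.86 to 8.58 for mitotic, 52.6 to 55.0 for replication and 145 to 161 for G1 members. In bulk RNA, fewer cells that express a gene and less of its RNA per cell cannot be told apart.

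**Figure D1:**
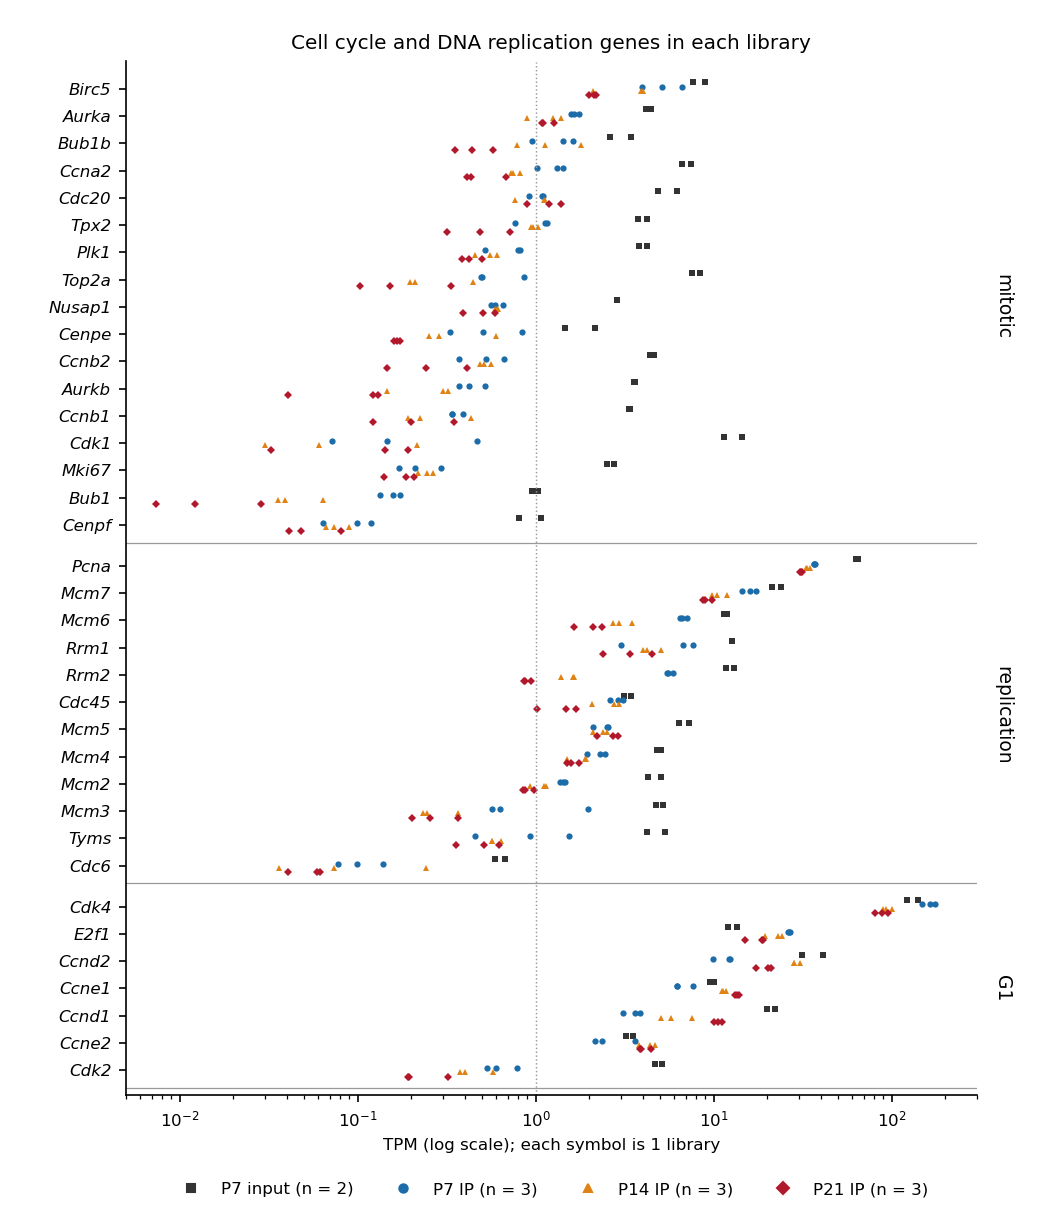
TPM of each of the 36 members on a log axis, with 1 symbol for each of the 11 libraries (squares for P7 input, circles for P7 IP, triangles for P14 IP, diamonds for P21 IP), ordered within each role by the P7 IP mean; the dotted line marks 1 TPM. The input squares stand to the right of the pull-down symbols in every mitotic and replication row, and to the left of the P7 IP circles for Cdk4 and E2f1.

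Promoter sequences were looked at because the roles differ in which factors are known to drive them. Mitotic genes are known to carry a CHR element, often beside CCAAT boxes, and replication genes to carry E2F sites. Windows from 250 bases before to 50 bases after the transcript start, from RefSeq on GRCm38.p6, were found for 29 of the 36 members (30 windows, since Mcm7 had more than 1). Both strands were searched for the CHR letters TTTGAA or TTTAAA, for CCAAT, and for the E2F letters TTTGGCGC, TTTCGCGC, TTTCCCGC or TTTGCCGC. The CHR letters were in 12 of 14 mitotic windows (85.7%), 4 of 12 replication windows (33.3%) and 1 of 4 G1 windows, against 27.6% of all 32851 windows in the table. CCAAT was in 12 of 14 mitotic windows (85.7%), 10 of 12 replication windows (83.3%) and 1 of 4 G1 windows, against 37.4% of all windows. The E2F letters were in 1 mitotic window (7.14%), 5 replication windows (41.7%) and 1 G1 window, against 2.26% of all windows. CHR and CCAAT stood together in 11 of 14 mitotic windows (78.6%), 4 of 12 replication windows and 0 of 4 G1 windows, against 10.7% of all. The motif lists follow what is known of these genes, so these shares are descriptions of the sequences, and a match is not a shown binding site.

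The 180 bases ending just before the annotated start are shown for 7 members, with every match in capitals on the strand of the gene: 3 mitotic genes that were low in the pull-down (Cdk1, Ccnb1, Cdc20), 2 replication genes that fell with age (Mcm6, Rrm2), and 2 G1 genes that moved in opposite directions (Cdk4, Ccne1). A CCAAT box on the other strand reads ATTGG. The regions on GRCm38.p6 are chr10:69352913-69353092 (minus strand) for Cdk1, chr13:100786487-100786666 (minus) for Ccnb1, chr4:118437344-118437523 (minus) for Cdc20, chr1:128359706-128359885 (minus) for Mcm6, chr12:24708074-24708253 (plus) for Rrm2, chr10:127063355-127063534 (plus) for Cdk4 and chr7:38107491-38107670 (minus) for Ccne1.
Cdk1: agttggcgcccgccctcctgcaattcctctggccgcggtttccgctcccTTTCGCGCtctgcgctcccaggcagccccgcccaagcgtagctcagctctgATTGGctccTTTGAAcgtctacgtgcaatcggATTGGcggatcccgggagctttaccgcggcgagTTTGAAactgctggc
Ccnb1: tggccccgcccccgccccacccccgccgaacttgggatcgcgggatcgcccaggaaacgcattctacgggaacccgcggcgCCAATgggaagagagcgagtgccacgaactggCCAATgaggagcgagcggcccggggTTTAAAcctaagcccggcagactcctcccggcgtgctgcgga
Cdc20: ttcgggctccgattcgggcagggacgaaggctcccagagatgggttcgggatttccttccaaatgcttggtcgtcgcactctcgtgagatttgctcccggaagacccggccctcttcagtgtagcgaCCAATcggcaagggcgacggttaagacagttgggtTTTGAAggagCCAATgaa
Mcm6: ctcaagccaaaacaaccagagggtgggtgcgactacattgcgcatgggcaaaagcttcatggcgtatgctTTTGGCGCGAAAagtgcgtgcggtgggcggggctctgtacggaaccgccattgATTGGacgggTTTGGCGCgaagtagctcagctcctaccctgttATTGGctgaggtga
Rrm2: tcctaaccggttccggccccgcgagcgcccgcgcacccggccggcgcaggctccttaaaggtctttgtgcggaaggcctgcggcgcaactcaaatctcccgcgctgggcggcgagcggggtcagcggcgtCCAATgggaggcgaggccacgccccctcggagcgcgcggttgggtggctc
Cdk4: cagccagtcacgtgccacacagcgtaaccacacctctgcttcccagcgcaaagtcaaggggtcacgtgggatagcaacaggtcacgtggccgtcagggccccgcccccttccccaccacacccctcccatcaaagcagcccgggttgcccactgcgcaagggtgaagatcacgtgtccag
Ccne1: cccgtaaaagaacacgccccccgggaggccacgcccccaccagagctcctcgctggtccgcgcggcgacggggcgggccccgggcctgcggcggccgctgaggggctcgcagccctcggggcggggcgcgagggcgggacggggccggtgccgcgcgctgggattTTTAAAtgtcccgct
In the 180 bases shown, Cdk1 held 2 CHR and 2 CCAAT matches beside 1 E2F match, and Ccnb1 and Cdc20 each held 1 CHR and 2 CCAAT matches. Mcm6 held 3 E2F and 2 CCAAT matches and no CHR match, and a pair of its E2F matches overlap on opposite strands. Over all member windows 2 pairs of E2F matches overlapped (Mcm6 and Mcm5), and 1 E2F match overlapped a CCAAT box (Mcm7). Within the 180 bases shown, Rrm2 held 1 CCAAT match, Cdk4 none of the 3 motifs, and Ccne1 1 CHR match. The full window of Rrm2 also held 1 CHR match, just past the start, and that of Cdk1 held 3 CCAAT matches.

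The comparison of P7 IP with P7 input asked which members the tagged ribosomes of excitatory neurons carry less or more of than the tissue. Both input libraries lay above all 3 P7 IP libraries for 33 of 36 members, where 56.3% of all 19008 tested genes were lower without overlap, and below all 3 for Cdk4 and E2f1 (22.1% of all genes). With limma on all 36 members without a filter on low values, 31 were lower and 2 higher, where 28.3% and 7.22% of all 48047 genes were. Only 19008 of these genes pass the filter described next. Shares without the filter, here and below, thus run over many genes under 1 TPM in nearly all libraries and are not a like background for the members. Under the filter of at least 1 TPM in at least 2 libraries 33 members were tested, of which 31 were called (69.8% of all genes tested), 29 lower (51.1%) and 2 higher (18.6%). Bub1, Cenpf and Cdc6 did not pass that filter. A further 12 members passed it through the input alone (Mki67, Top2a, Cdk1, Ccnb1, Ccnb2, Aurkb, Plk1, Cenpe, Nusap1, Mcm3, Tyms and Cdk2), so they had to differ and their calls add nothing to the count.

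Among the mitotic members Cdk1 (ENSMUSG00000019942), the kinase that starts mitosis, stood out by its depth of depletion. It was at 11.4 and 14.5 TPM in input replicates 1 and 2, and at 0.0716, 0.467 and 0.146 TPM in P7 IP replicates 1, 2 and 3. Input was 56.9-fold higher in mean, and the log2 difference in the fit without the filter was -3.51 ± 0.17 (limma adjusted p = 8.62e-07). Every pull-down library was below 0.5 TPM, so the fold rests on values near 0, and without P7 IP replicate 2 it was 119.5. The groups were far apart.

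The other members that serve the mitotic chromosomes and spindle were lower by smaller factors. Top2a (ENSMUSG00000020914), the topoisomerase that untangles chromosomes, was at 7.53 and 8.38 TPM in input and at 0.497, 0.857 and 0.50 TPM in P7 IP, a log2 difference of -2.47 ± 0.15 in the fit without the filter (limma adjusted p = 2.72e-06). Mki67, the coat protein of mitotic chromosomes used as a proliferation marker, was at 2.50 and 2.76 TPM in input and at 0.296, 0.211 and 0.171 TPM in P7 IP. Input was 12.9-fold higher in mean for Top2a and 11.7-fold for Mki67. The B cyclins that activate Cdk1 were 9.44-fold (Ccnb1) and 8.67-fold (Ccnb2) higher in input, and cyclin A2 (Ccna2) 5.65-fold. The kinase Aurkb of the chromosomal passenger complex was 8.17-fold and Plk1, which matures spindle poles, 5.65-fold higher in input. For the spindle checkpoint kinase Bub1 and the kinetochore protein Cenpf, whose input means were 0.993 and 0.941 TPM, the ratios were 6.38 and 9.98.

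Not every mitotic member was close to 0 in the pull-down. Birc5 (survivin, ENSMUSG00000017716), another passenger protein that also blocks cell death, was at 7.68 and 8.93 TPM in input and at 6.63, 3.95 and 5.16 TPM in P7 IP. Its log2 difference of -0.59 ± 0.22 (limma adjusted p = 0.031) was the smallest of the mitotic members. That call was lost without input replicate 1, input replicate 2, P7 IP replicate 2 or P7 IP replicate 3, and the difference ran from -0.75 to -0.44 with each library left out. It was also lost without the filter (limma adjusted p = 0.0721) and under both other scalings (-0.23 and -0.01). Bub1b, the checkpoint relative of Bub1, was 2.27-fold, Aurka, the kinase of spindle poles, 2.59-fold and the kinetochore motor Cenpe 3.26-fold higher in input. Tpx2, which activates Aurka, was 3.88-fold, Nusap1, which bundles spindle microtubules, 4.77-fold and Cdc20, which switches on the anaphase-promoting complex, 5.34-fold higher in input.

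The replication members kept more of their level in the pull-down. Pcna (ENSMUSG00000027342), the sliding clamp of DNA polymerases, which also serves DNA repair, was the most abundant of them. It was at 64.5 and 63.0 TPM in input and at 36.5, 37.3 and 36.7 TPM in P7 IP, a log2 difference of -0.78 ± 0.05 (limma adjusted p = 2.59e-07). Mcm7 (ENSMUSG00000029730) was at 23.8 and 21.4 TPM in input and at 17.3, 14.5 and 16.0 TPM in P7 IP, a log2 difference of -0.48 ± 0.10 (limma adjusted p = 0.0014), and did not pass under either other scaling (-0.09 and -0.10). In both genes the groups stayed apart while all pull-down libraries were well above 10 TPM.

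The 6 subunits of the MCM helicase, which form 1 ring in equal numbers, did not share a ratio. P7 IP over input was 0.705 for Mcm7, 0.576 for Mcm6, 0.451 for Mcm4, 0.351 for Mcm5, 0.307 for Mcm2 and 0.213 for Mcm3. In P7 IP their means ran from 1.06 TPM (Mcm3) to 15.9 TPM (Mcm7), and in input from 4.65 TPM (Mcm2) to 22.6 TPM (Mcm7). Mcm3 was uneven, at 1.97, 0.633 and 0.568 TPM in P7 IP replicates 1, 2 and 3, and input was 4.70-fold higher in mean but 8.28-fold without P7 IP replicate 1. Mcm6 was at 11.4 and 11.9 TPM in input and at 6.62, 6.46 and 7.08 TPM in P7 IP, with a log2 difference of -0.71 ± 0.12 (limma adjusted p = 2.83e-04).

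Of the other replication members, Cdc45, which completes the active helicase, was at 3.15 and 3.45 TPM in input and at 2.64, 3.12 and 2.91 TPM in P7 IP. This difference of -0.15 ± 0.15 did not pass (limma adjusted p = 0.389), and quantile normalisation turned it to 0.42. Rrm2 (ENSMUSG00000020649) and Rrm1, the subunits of ribonucleotide reductase that make the building blocks of DNA, were 2.19-fold and 2.18-fold higher in input. Rrm1 in P7 IP was uneven, at 7.70, 6.75 and 3.04 TPM. Tyms, which makes thymidylate, was 4.93-fold and Cdc6, which loads the helicase, 5.99-fold higher in input, the latter at input levels of only 0.672 and 0.589 TPM.

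The G1 members went both ways. E2f1 (ENSMUSG00000027490), the transcription factor that opens S phase and that also acts in the death of neurons, was at 12.1 and 13.6 TPM in input and at 27.0, 26.4 and 26.4 TPM in P7 IP. The log2 difference was 0.99 ± 0.11 (limma adjusted p = 1.74e-05), and it was 1.38 and 1.47 under the other scalings. Cdk4 (ENSMUSG00000006728), the kinase of D-type cyclins, was the most abundant of the 36 members, at 140 and 122 TPM in input and at 176, 164 and 149 TPM in P7 IP. Its log2 difference of 0.31 ± 0.10 (limma adjusted p = 0.0143) rested on little. The call was lost without input replicate 2, the library without Cre, where the difference was 0.21, and under quantile normalisation, where it was 0.16. The 2 input libraries differ in genotype as well as in replicate, and these cannot be told apart here.

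The partners of Cdk4 were lower where Cdk4 was not. Ccnd1 (ENSMUSG00000070348), cyclin D1, was at 19.8 and 22.2 TPM in input and at 3.08, 3.64 and 3.88 TPM in P7 IP, a log2 difference of -2.28 ± 0.14 (limma adjusted p = 2.53e-07). Ccnd2 (ENSMUSG00000000184), cyclin D2, was at 31.5 and 41.4 TPM against 9.90, 12.1 and 12.4 TPM, a log2 difference of -1.58 ± 0.13 (limma adjusted p = 1.86e-06). Cdk2, the kinase of E-type cyclins, was at 4.66 and 5.10 TPM in input and at 0.786, 0.532 and 0.599 TPM in P7 IP, 7.65-fold higher in input. Its cyclins were much closer to their input level. Ccne1 (ENSMUSG00000002068) was at 9.54 and 10.0 TPM against 6.23, 7.71 and 6.26 TPM, a log2 difference of -0.49 ± 0.09 (limma adjusted p = 5.63e-04). This call was lost under both other scalings, and the difference turned to 0.07 under quantile normalisation. Ccne2, at 3.23 and 3.55 TPM against 2.17, 2.36 and 3.62 TPM, overlapped between the groups and did not pass (limma adjusted p = 0.155).

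**Figure D2:**
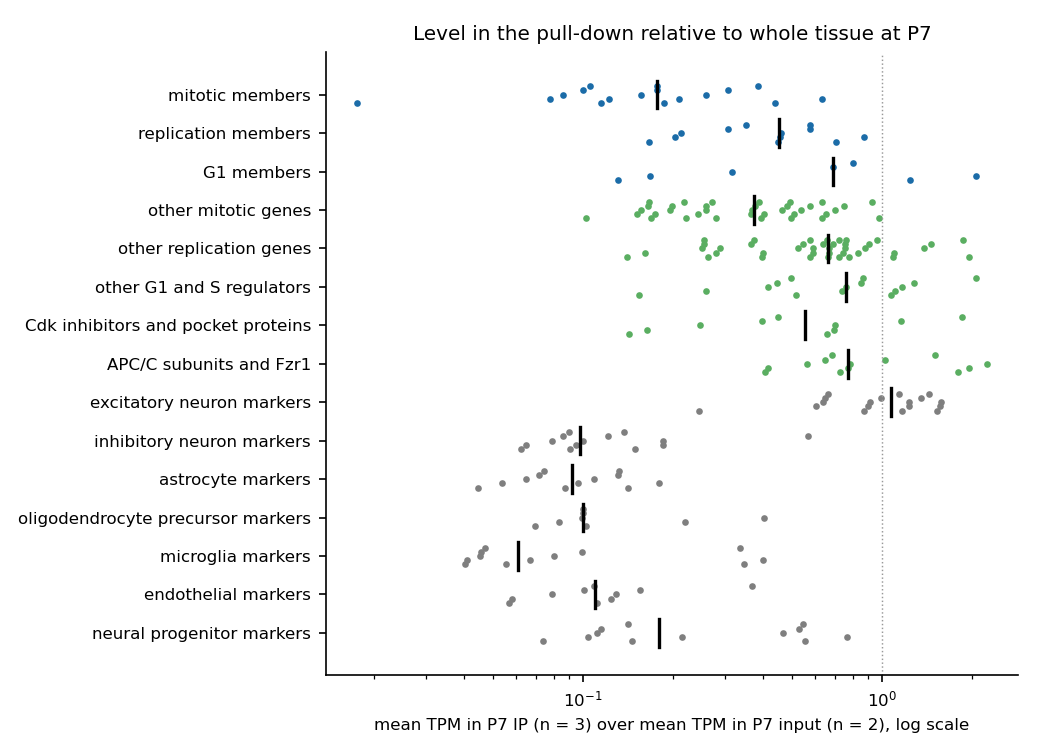
Mean TPM in P7 IP (n = 3) over mean TPM in P7 input (n = 2) on a log axis, with 1 point for each gene of the member groups (blue), 5 further cell cycle lists (green) and 7 cell type marker lists (grey); the vertical bars are list medians and the dotted line marks equal levels. The medians are 0.177 for mitotic, 0.453 for replication and 0.688 for G1 members, with Cdk1 the lowest member at 0.018. The median over all genes tested was 0.753 (not drawn), so equal levels are not the level of a typical gene.

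Without the filter, the median log2 difference was -1.56 for the 17 mitotic, -0.95 for the 12 replication and -0.49 for the 7 G1 members. It was -0.05 for all 48047 genes, many of them near 0 TPM. With the filter it was -1.57, -1.01 and -0.49 among the members tested, beside -0.33 for all genes tested, and these medians only describe, since they include the 12 members that passed through the input alone. The scaling sets where 0 lies: median-of-ratios scaling moved the median of all genes to 0.00 and quantile normalisation to 0.03. Of all genes called, 3541 were higher and 9718 lower in the main fit, 6250 and 6147 after median-of-ratios scaling, and 6256 and 6025 after quantile normalisation. The medians by role with the filter were then -1.31, -0.64 and -0.12 after median-of-ratios scaling, and -1.04, -0.56 and 0.07 after quantile normalisation. Of the 33 members tested, 25 and 21 were lower and 2 and 2 higher under these 2 scalings. The 2 higher were both G1 members after median-of-ratios scaling, but Cdc45 and E2f1 after quantile normalisation. Rrm1 passed under neither scaling, and Bub1b, Cenpe, Mcm4, Mcm6 and Cdk4 did not pass under quantile normalisation. No test of the difference between roles was made because the members were chosen with results known.

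Markers of dividing and non-neuronal cells were also lower in the pull-down, and so were those of inhibitory neurons. Of 14 inhibitory neuron markers the summed TPM was 1004 to 1119 in input and 136 to 149 in P7 IP. This was a ratio of means of 0.136, and 14 of 14 were lower, beside 51.1% of all genes tested. Of 12 neural progenitor markers the summed TPM was 1346 to 1360 in input and 130 to 159 in P7 IP, a ratio of means of 0.104, and 9 of 11 tested were lower. Sox2, a progenitor and astrocyte factor, was at 41.1 TPM ± 1.74 (SD, n = 2) in input and 4.27 TPM ± 0.363 (SD, n = 3) in P7 IP. Eomes, of intermediate progenitors, was uneven in both groups, at 5.02 and 1.40 TPM in input and at 1.39, 5.66 and 0.312 TPM in P7 IP. The summed ratio was 0.056 for 12 astrocyte markers, 0.122 for 8 oligodendrocyte precursor markers, 0.131 for 12 microglia markers and 0.137 for 10 endothelial markers. The median ratio over genes was 0.177 for the mitotic members, 0.180 for the neural progenitor markers and 0.098 for the inhibitory neuron markers, beside 0.753 for all genes tested. It was 0.061 to 0.11 for the astrocyte, precursor, microglia and endothelial lists. No marker of these last 4 lists was at 0 in any library. The part of any marker list in the members' levels was not tested.

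Within the pull-down, the age comparisons asked how these transcripts changed in excitatory neurons between P7, P14 and P21. They share the libraries of each age, so they are not independent of each other. From P7 to P21, 19 of 33 tested members fell and 4 rose, beside 32.6% and 27.3% of all genes tested, and a moderated F test over the 3 ages called 22 (62.6% of all genes). The fall covered 8 mitotic, 8 replication and 3 G1 members, and the 4 that rose were all cyclins of G1 (Ccnd1, Ccnd2, Ccne1 and Ccne2). All 3 P21 libraries lay below all 3 P7 libraries for 22 of 36 members (34.7% of all genes) and above for 4 (29.3%). Of these 23 calls (59.9% of all genes), 17 held with each library left out in turn. The split of 4 against 19 was the same under both other scalings. Without the filter, 17 of 36 fell and 4 rose (13.2% and 11% of all 48047 genes).

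The first weekly step, P7 to P14, held 9 falls and 4 rises among the 33, beside 22.8% and 26.7% of all genes tested. The second, P14 to P21, held 7 falls and 1 rise, beside 19.7% and 8.53%. Calls that held with each library left out were 8 of 13 in the first step (49.5% of all genes were called) and 4 of 8 in the second (28.3%). All libraries of the later age were lower for 14 of 36 members and higher for 4 in the first step (26.7% and 31.1% of all genes), and lower for 16 and higher for 2 in the second (30.1% and 13.7%). Without the filter, 6 of 36 fell and 4 rose in the first step (8.63% and 9.67% of all 48047 genes) and 4 fell and 1 rose in the second (5.89% and 2.66%). In the second step 1621 of all genes were higher and 3749 lower in the main fit, 2732 and 2273 after median-of-ratios scaling and 2290 and 2662 after quantile normalisation, and members were then 2 higher and 5 lower under both. The steps of the 2 weeks differed for 4 of the 33 (24.3% of all genes), upward for Rrm2 and Cdk4 (7.46%) and downward for Ccnd2 and Ccne1 (16.8%). The call of Ccne1 (-0.45, limma adjusted p = 0.0351) was lost under both other scalings (-0.30 and -0.31, limma adjusted p = 0.138 and 0.125), without the filter (0.0695) and without any of 7 libraries (up to 0.121). These were P7 IP replicates 1 and 3, all P14 IP replicates and P21 IP replicates 1 and 2.

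Rrm2 and Mcm6 had the largest falls of the tested members on the log2(TPM + 1) scale. Rrm2 went from 5.57, 5.93 and 5.44 TPM at P7 to 1.39, 1.62 and 1.64 TPM at P14 and 0.877, 0.938 and 0.863 TPM at P21. The log2 change was -1.38 ± 0.08 in the first week and -0.43 ± 0.08 in the second (limma adjusted p = 7.1e-07 and 0.00357), and no library of 1 age reached the range of another. Mcm6 went from the P7 values above to 2.94, 3.46 and 2.72 TPM at P14 and 2.35, 1.64 and 2.10 TPM at P21, a P21 minus P7 change of -1.35 ± 0.10 (limma adjusted p = 1.24e-06). Its second step of -0.42 ± 0.10 (limma adjusted p = 0.014) lost its call without P14 IP replicate 2 (limma adjusted p = 0.058).

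The helicase subunits again differed from each other. Mcm7 was at 9.82, 12.0 and 10.5 TPM at P14 and 8.71, 9.84 and 8.96 TPM at P21, a P21 minus P7 change of -0.73 ± 0.09 (limma adjusted p = 3.75e-05). Mcm2 (-0.35) and Mcm4 (-0.31) fell by less, and the Mcm4 call was lost without P7 IP replicate 1 or 3 or P21 IP replicate 2 (limma adjusted p of up to 0.073). Mcm3 fell by -0.63 ± 0.21 in log2, but by -0.33 without P7 IP replicate 1, and lost its call without P21 IP replicate 1 or 2 (limma adjusted p of up to 0.0673). Mcm5, at 2.39 TPM ± 0.256 (SD, n = 3) at P7 and 2.60 TPM ± 0.355 (SD, n = 3) at P21, did not pass (0.08 ± 0.11, limma adjusted p = 0.52).

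Cdc45 did not pass in the first week (-0.12) and fell in the second. Its values were 2.09, 2.95 and 2.76 TPM at P14 and 1.02, 1.48 and 1.68 TPM at P21, a P21 minus P14 change of -0.59 ± 0.13 (limma adjusted p = 0.00749), and all P21 libraries were below all others. Pcna went to 33.0, 34.7 and 33.4 TPM at P14 and 31.4, 30.9 and 30.4 TPM at P21. Its P21 minus P7 change of -0.25 ± 0.04 passed (limma adjusted p = 4.54e-04), and at P21 its mean was still 0.839 of the P7 mean. Rrm1 and Tyms did not pass in any age comparison, and without P7 IP replicate 3, which held the lowest P7 value of both, their P21 minus P7 changes were -0.92 and -0.57 with limma adjusted p of 0.00164 and 0.00901.

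Mitotic members were low in the pull-down at every age, and 11 of the 17 had a mean below 1 TPM at P7, P14 and P21, where the log2(TPM + 1) scale leaves little room for a change. Cdk1 was between 0.0300 and 0.215 TPM at P14 and between 0.0326 and 0.192 TPM at P21, and did not pass in any age comparison. Birc5 went from 6.63, 3.95 and 5.16 TPM at P7 to 2.11, 3.99 and 3.89 TPM at P14 and 2.12, 2.19 and 2.00 TPM at P21. Its P21 minus P7 change of -0.99 ± 0.19 (limma adjusted p = 0.00119) was the largest on the log2(TPM + 1) scale among the tested mitotic members and held with each library left out. Its P21 mean was 0.401 of the P7 mean, and weakly expressed members had lower ratios, such as 0.222 for Aurkb. All P21 libraries were below all P7 libraries.

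Ccna2, Aurkb, Bub1b and Tpx2 also fell from P7 to P21 with each library left out, by log2 values of -0.58, -0.39, -0.67 and -0.43. Top2a (-0.43), Aurka (-0.30) and Cenpe (-0.40) fell too, but each call was lost without some library. For Top2a these were P7 IP replicate 2 and P21 IP replicate 2 (limma adjusted p of up to 0.061). For Aurka they were replicates 1 and 2 of either age (up to 0.0728), and for Cenpe every library but P7 IP replicate 1 (up to 0.153, limma adjusted). In the second week Bub1b and Tpx2 were the 2 mitotic members called (-0.60 and -0.40), and neither held with each library left out (limma adjusted p of up to 0.0954 and 0.104). Cdc20 was at 1.04 TPM ± 0.0993 (SD, n = 3) at P7 and 1.16 TPM ± 0.253 (SD, n = 3) at P21 and did not pass (limma adjusted p = 0.626). Mki67, Ccnb1, Ccnb2, Plk1 and Nusap1 did not pass from P7 to P21 either.

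The D-type cyclins rose along different courses. Ccnd1 rose in both weeks, to 7.59, 5.80 and 5.07 TPM at P14 and 10.0, 10.5 and 11.1 TPM at P21, with steps of 0.65 ± 0.12 and 0.71 ± 0.12 (limma adjusted p = 0.00138 and 0.00221). The 3 ages did not overlap, and the P21 mean was 2.98 times the P7 mean. Ccnd2 rose to 28.2, 30.7 and 28.4 TPM at P14 and then fell to 21.1, 17.3 and 20.2 TPM at P21. Its steps were 1.28 ± 0.12 and -0.55 ± 0.12 (limma adjusted p = 7.87e-06 and 0.00537), and the test of the difference between the steps gave -1.83 ± 0.20 (limma adjusted p = 3.58e-04). P14 was above both other ages in all libraries. At P21 Ccnd1 and Ccnd2 were still below both P7 input libraries.

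The E-type cyclins rose too. Ccne1 went to 11.7, 11.3 and 11.1 TPM at P14 and 13.2, 13.5 and 13.8 TPM at P21, with steps of 0.68 ± 0.08 (limma adjusted p = 4.3e-05) and 0.23 ± 0.08 (limma adjusted p = 0.0527). The ages did not overlap, and P14 and P21 were above both P7 input libraries. The second step passed under both other scalings, with 0.34 and 0.32. Ccne2 was at 4.66, 3.79 and 4.40 TPM at P14 and 3.87, 4.42 and 3.91 TPM at P21, so the 2 later ages overlapped. Its P21 minus P7 rise of 0.47 ± 0.14 (limma adjusted p = 0.0134) lost its call without P7 IP replicate 1 or 2 (limma adjusted p of up to 0.0535).

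The other G1 members fell. Cdk4 fell in the first week, to 92.6, 101 and 89.0 TPM, and was at 87.9, 96.0 and 80.9 TPM at P21. The step was -0.78 ± 0.09 (limma adjusted p = 3.18e-05) in the first week and -0.09 ± 0.09 (limma adjusted p = 0.456) in the second, and the steps differed by 0.69 ± 0.15 (limma adjusted p = 0.00835). P14 and P21 overlapped, and both were below all P7 libraries. E2f1 went to 19.6, 24.3 and 23.1 TPM at P14 and 18.9, 18.8 and 15.1 TPM at P21. Its P21 minus P7 change was -0.58 ± 0.10 (limma adjusted p = 4.86e-04), while its second step (-0.33) lost its call without P14 IP replicate 2 or 3 or P21 IP replicate 3 (limma adjusted p of up to 0.115). Cdk2 fell from a P7 mean of 0.639 TPM to 0.236 TPM at P21 (-0.41 ± 0.11, limma adjusted p = 0.00665).

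**Figure D3:**
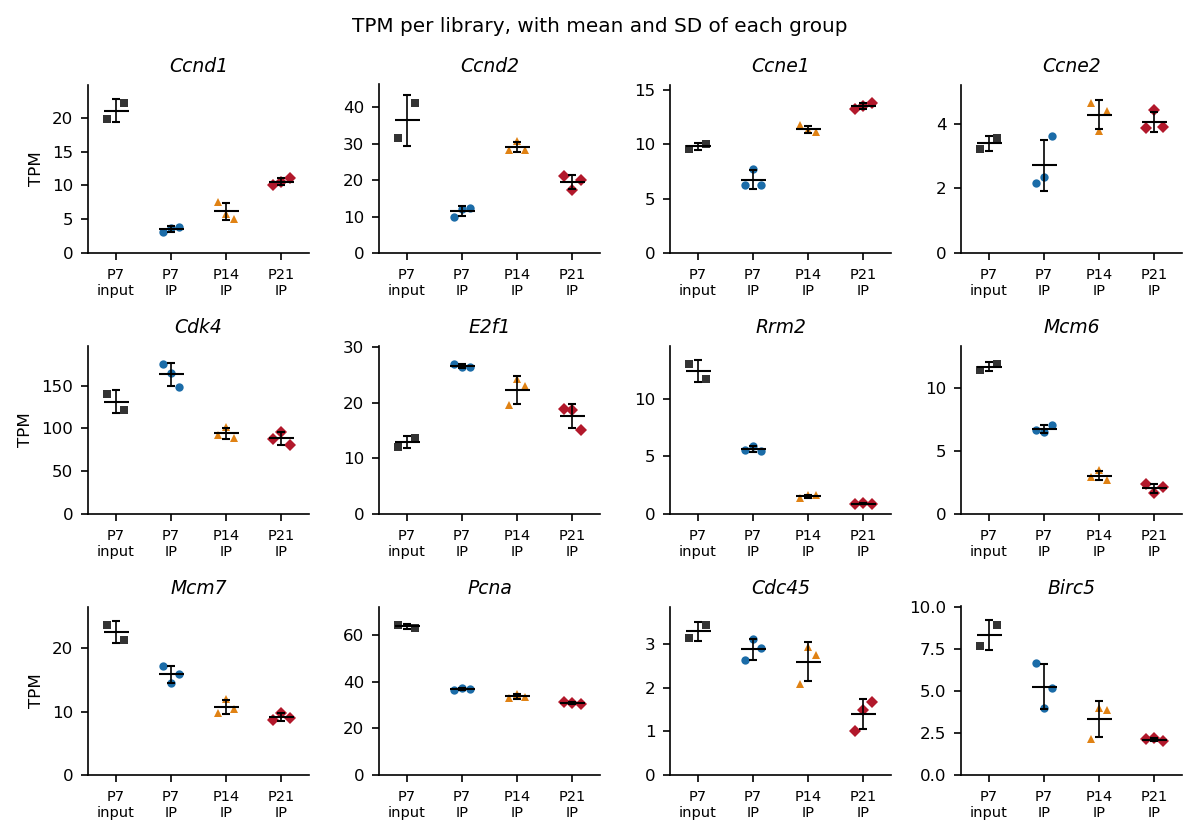
TPM of 12 members in each library (points) on linear axes from 0, with the mean and SD of each group (horizontal and vertical bars; n = 2 for P7 input and n = 3 for each pull-down age). Rrm2, Mcm6, Cdk4 and Birc5 come down with age in the pull-down, Ccnd1 and Ccne1 go up at each age, and Ccnd2 is highest at P14.

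Cell type markers also changed in the pull-down over the same ages, in which 27.3% of all genes tested rose and 32.6% fell from P7 to P21. In that comparison 11 of 12 astrocyte, 10 of 10 oligodendrocyte and 11 of 12 microglia markers rose, and 1 microglia marker fell. Summed TPM went from 158 to 219 up to 503 to 659 for astrocytes and from 32.5 to 36.5 up to 527 to 759 for oligodendrocytes. For microglia it went from 31.4 to 38.1 up to 55.5 to 69.1. Of the oligodendrocyte precursor markers 5 of 8 rose and 1 fell, and summed TPM was 28.5 to 36.7 at P7 and 35.7 to 47.8 at P21. Of the neural progenitor markers 1 of 11 rose and 2 fell, with sums of 130 to 159 at P7, 94.5 to 99.2 at P14 and 90.3 to 93.9 at P21. Of the erythroid markers 5 of 5 tested rose, with sums of 293 to 399 at P7 and 656 to 1290 at P21, and P14 IP replicate 1 stood at 702 against 326 and 300 in replicates 2 and 3. Of 14 inhibitory neuron markers 5 rose and 3 fell, with sums of 136 to 149 at P7 and 124 to 146 at P21. Of 18 excitatory neuron markers 5 rose and 9 fell, of 10 endothelial markers 3 rose and 0 fell, and of 10 mural and fibroblast markers 1 rose and 1 fell. These values come from the same libraries in which Ccnd1, Ccnd2 and Ccne1 rose and the replication members fell. The part of any marker list in those changes was not tested.

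The wider machinery was described with 6 further lists, chosen with results of these data known. Beside their counts stand 51.1% of all genes tested that were lower and 18.6% that were higher in P7 IP than in input, and 32.6% that fell and 27.3% that rose from P7 to P21. As among the members, genes that passed the filter through the input alone had to differ, so their calls add nothing. How many did so in these lists was not counted. Of the 36 listed other mitotic genes, 33 to 34 reached 1 TPM in an input library and 19 to 20 in a P7 IP library. Of 34 other mitotic genes tested, 30 were lower and 0 higher in P7 IP than in input, with a median of -0.89, against 23 lower and 1 higher after median-of-ratios scaling and 20 and 2 after quantile normalisation. From P7 to P21, 16 of them fell and 4 rose. Among them Pbk, a mitotic kinase, was at 5.91 TPM in input and 0.607 TPM in P7 IP, and the condensin subunit gene Ncapd2 at 27.4 and 6.66 TPM. Prc1, which bundles the midzone of the spindle, and Cks2, a small partner of Cdk1, fell from P7 to P21 by log2 values of -1.25 ± 0.21 and -1.19 ± 0.19 (limma adjusted p = 3.45e-04 and 2.37e-04). Incenp, the scaffold of the passenger complex that holds Birc5 and Aurkb, went the other way, from 6.19, 4.11 and 3.15 TPM at P7 to 20.0, 16.5 and 11.6 TPM at P21 (1.64 ± 0.24, limma adjusted p = 1.48e-04).

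Of 40 other replication genes, 28 were lower and 4 higher in P7 IP, with a median of -0.55. After median-of-ratios scaling these were 16 lower and 7 higher (median -0.17), and after quantile normalisation 12 and 9 (median -0.06). From P7 to P21 19 fell and 3 rose. Cdc7, the kinase that fires origins, was at 13.9 TPM in input and 3.65 TPM in P7 IP. Orc6, a subunit of the origin recognition complex, was at 56.0 and 49.5 TPM in input and at 116, 93.4 and 102 TPM in P7 IP, a log2 difference of 0.96 ± 0.09 (limma adjusted p = 4.65e-06), and it fell to 51.5, 54.2 and 53.6 TPM by P21. Rfc5, of the clamp loader for Pcna, was at 17.2 TPM in input and 32.2 TPM in P7 IP and did not pass from P7 to P21 (limma adjusted p = 0.483). Rfc3, of the same loader, fell by -1.05 ± 0.10, and Chaf1b, of a histone chaperone that works with Pcna, fell by -1.44 ± 0.12 (limma adjusted p = 8.02e-06 and 1.72e-06).

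Of 12 other G1 and S regulators, 6 were lower and 1 higher in P7 IP, with a median of -0.21. This turned to 3 lower and 5 higher (median 0.18) after median-of-ratios scaling and to 1 lower and 7 higher (median 0.26) after quantile normalisation. With age, P7 to P21, 7 fell and 3 rose. Cks1b, a small partner of Cdks needed to destroy p27, was higher in the pull-down under all 3 scalings and fell with age. It was at 24.5 and 24.0 TPM in input, 55.4, 48.6 and 46.1 TPM in P7 IP, 14.6, 14.6 and 15.5 TPM at P14 and 7.74, 8.22 and 6.77 TPM at P21 (P21 minus P7 -2.57 ± 0.08, limma adjusted p = 5.93e-09). Cdk6, the other kinase of D-type cyclins, fell from 3.52 TPM ± 0.390 (SD, n = 3) at P7 to 0.380 TPM ± 0.0114 (SD, n = 3) at P21, a change of -1.71 ± 0.10 (limma adjusted p = 1.73e-07). Ccnd3, the third D-type cyclin, was at 23.1 TPM in input and 12.0 TPM in P7 IP and did not pass with age (limma adjusted p = 0.257 from P7 to P21). Tfdp2, a partner of E2F factors, rose by 1.42 ± 0.12 (limma adjusted p = 2.35e-06).

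Among 10 Cdk inhibitors and pocket proteins, which hold cells out of the cycle, 8 were lower and 1 higher in P7 IP (5 and 2 after median-of-ratios scaling, 6 and 2 after quantile normalisation), and from P7 to P21 5 fell and 1 rose. Cdkn1b (p27) was at 44.8 TPM in input and 17.8 TPM in P7 IP and fell to 11.5 TPM by P21 (-0.59 ± 0.05, limma adjusted p = 3.27e-06). Cdkn1c (p57) fell from 10.7, 12.1 and 9.10 TPM at P7 to 2.28, 2.72 and 1.52 TPM at P14 (-1.88 ± 0.18, limma adjusted p = 1.18e-05), and the retinoblastoma gene Rb1 fell from 12.0 to 6.57 TPM between P7 and P21 (-0.76 ± 0.11, limma adjusted p = 1.51e-04). Cdkn1a (p21) rose from 27.1 to 39.8 TPM (0.53 ± 0.09, limma adjusted p = 4.6e-04). Cdkn2d (p19), the highest of the inhibitors named here, was at 85.6 TPM in input and 99.4 TPM in P7 IP.

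Cdk5 with its activators p35 and p39, a Cdk of neurons that needs no cyclin, was measured for comparison. Cdk5 was at 106 TPM in input and 112, 117 and 112 TPM in the P7, P14 and P21 pull-downs, and did not pass in any comparison in the main fit, but after median-of-ratios scaling it was higher in P7 IP than in input (0.48, limma adjusted p = 8.89e-05). Cdk5r2 (p39) rose from 345 to 466 TPM between P7 and P21 (0.43 ± 0.07, limma adjusted p = 3.95e-04). Of 13 subunits of the anaphase-promoting complex and Fzr1, its activator in neurons and G1 cells, 8 were lower and 4 higher in P7 IP, with a median of -0.37. After median-of-ratios scaling these were 4 and 4 (median 0.04), and after quantile normalisation 6 and 4 (median -0.18). Between P7 and P21 8 fell and 1 rose. Anapc11, its RING subunit, was at 122 TPM in input and 274 TPM in P7 IP. Fzr1 fell from 50.8 to 35.3 TPM between P7 and P21 (-0.52 ± 0.06, limma adjusted p = 2e-05), and it was far above Cdc20, the mitotic activator of the same complex, at each age.

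**Figure D4:**
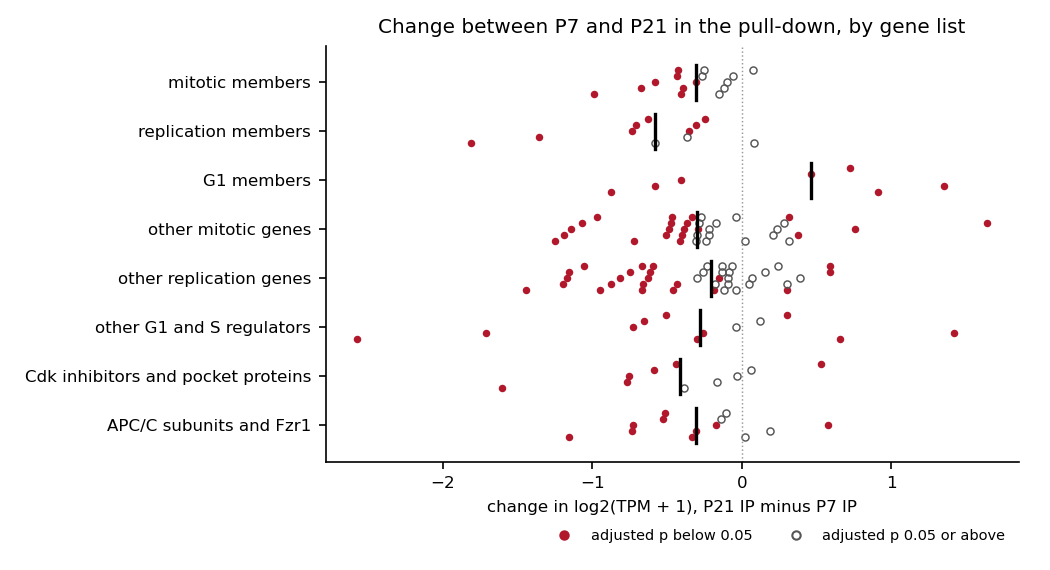
P21 IP minus P7 IP on the log2(TPM + 1) scale, with 1 point for each tested gene of the 3 member groups and 5 further cell cycle lists (filled where the limma adjusted p is below 0.05, open otherwise); vertical bars are list medians and the dotted line marks no change. The 7 G1 members split into 4 above and 3 below 0, whereas 14 of 15 mitotic and 10 of 11 replication members lie below 0.

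Some values cannot be assigned to a member with certainty. The sources used here do not say whether strand was used in counting, and 11 members overlap another coding gene in the RefSeq table, so reads from the pair could be shared (Ccna2 with Exosc9, Aurka with Cstf1, Cdc20 with Elovl1, Nusap1 with Oip5, Mcm7 with Ap4m1, Cdc45 with Ufd1, Cdk2 with Pmel, Cdk4 with Tspan31, Ccnd1 with LTO1, Ccne2 with Ints8 and E2f1 with Necab3). Named pseudogenes exist for Ccnb1, Ccnb2, Pcna and Tyms.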

How the data were processed

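The table held TPM values of 77179 gene IDs in 11 libraries of polyadenylated RNA (9 pull-down, 2 whole-tissue), as the authors deposited it. The submitters' processing notes name fastp 1.0.1, Salmon 1.10.0 and DESeq2 1.46.0, and the mouse genome mm39. Not given in the sources used here are the role of each tool, the annotation, the step from transcripts to genes and any use of strand. A TPM value is relative to each library's total and keeps no depth, so precision comes only from the spread between replicates.

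The members, lists and motifs were chosen with earlier results of these data known, and no p-value was computed over a list. The 19008 genes that reached 1 TPM in 2 or more libraries were fitted as log2(TPM + 1) with limma 3.58.1 (R 4.3.3): group means over the 11 libraries, leaving 7 residual degrees of freedom, trended moderation, two-sided tests, and Benjamini-Hochberg adjustment over every tested gene. A call is an adjusted p below 0.05. P7 pull-down was set against P7 input, and the pull-down ages against each other in pairs, in a moderated F test and as a difference between the 2 weekly steps. The code was checked on simulated data.

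All members could be named. From each other cell cycle list the 2 largest rises and the 2 largest falls of each comparison among called genes were eligible, with Cdkn1b, Cdkn1c, Cdk5, Rb1 and Fzr1 always, and 10 fixed cell type marker genes. Promoters were read from a RefSeq table on GRCm38.p6, not the build of the TPM values, in which Tpx2, Ccnd1, Ccne2, Ccna2, Ccnd2, Mcm4 and Aurkb had no entry. Alternatives changed the pseudocount (0.1 or 5 TPM), the filter (none, or a mean of 5 TPM or more), the scaling (median of ratios, quantiles, or totals recomputed after removing mitochondrial, haemoglobin and ribosomal protein genes), the moderation (no trend) or the libraries (a replicate block, only the groups compared, each library left out). Plots were made with matplotlib 3.10.9 under Python 3.11.15.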

Additional observations from a re-analysis of the deposited data

Results flagged for a closer look

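For 4 members the change of the second week (P14 to P21) differed from that of the first (P7 to P14) by the limma test of the difference itself, where 24.3% of all genes tested differed. Ccnd2 rose and then fell, and its second step minus its first was -1.83 on the log2(TPM + 1) scale. For Ccne1 the difference was -0.45 (limma adjusted p = 0.0351), a call lost under median-of-ratios scaling, under quantile normalisation, without the filter and without any of 7 single libraries (limma adjusted p of up to 0.138 over these). Cdk4 fell in the first week and did not pass in the second, with a difference of 0.69, and Rrm2 fell in both weeks but more in the first, with a difference of 0.95.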

How the results depend on the processing

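Of 1983 values of single members under the alternatives, 1849 kept their side of the threshold, 95 lost the call and 37 gained it. A further 2 turned direction with a call in the main fit or the alternative. Changes of sign between values that were not called were not counted as turned. An example is Bub1b in P14 IP minus P7 IP, at -0.07 in the main fit and up to 0.075 with a library left out. The 2 counted as turned were P7 IP minus P7 input of Cdc45 (0.42, limma adjusted p = 0.0161) and Ccne1 (0.073) under quantile normalisation. In the same comparison and setting Cdc25c (0.45), Rfc3 (0.043), Chaf1b (0.37), Dbf4 (0.19), E2f6 (0.25) and Cdk5r2 (-0.29) turned, and under median-of-ratios scaling Cdk5r1 (0.13), Cdc23 (0.058) and Fzr1 (0.036). With a mean of at least 5 TPM only 9 members were tested, and 9 (IP against input), 8 (P14 minus P7), 5 (P21 minus P14), 8 (P21 minus P7) and 8 (F test) were called. Of all 10856 genes tested there, 8265, 6979, 4555 and 7922 were called in the first 4 of these comparisons. Without a filter 5 of 36 members were called for P21 minus P14, beside 4106 of 48047 genes. The log2 changes of members in both fits were the same as in the main fit, while the moderation and the adjustment ran over all 48047 genes. How much each of these 2 steps changed the count was not tested. With each pull-down library left out in turn, the count of members called ran from 30 to 31 for IP against input (12696 to 12934 of all 19008 genes). It ran from 8 to 14 for P14 minus P7 (8288 to 8813 of all genes), lowest without P14 IP replicate 1. For P21 minus P14 it was 5 to 8 (3813 to 5071 of all genes), lowest without P14 IP replicate 2 or 3 or P21 IP replicate 3. It was 18 to 24 for P21 minus P7 (10552 to 10898 of all genes) and 17 to 22 for the F test. Fits without an input library assume that the other one varies like the other groups. With the replicate block 31, 12, 8 and 24 members were called in the 4 comparisons, beside 13349, 9620, 5595 and 11570 of all 19008 genes. Same-numbered libraries had correlations of deviations from -0.105 to 0.177 over 15 pairs, 1 above 0.1, and differently numbered ones from -0.167 to 0.167. Groups of 2 or 3 libraries are too small for these values to show or exclude a pairing by number. Depth is unknown, so no counting error can be given for values near 0 TPM.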
